A study of Mus musculus with 2 samples.

Results

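The genes described here encode 7 growth factors that bind the epidermal growth factor receptor (Areg, Ereg, Epgn, Hbegf, Tgfa, Btc and Egf) and 3 receptors of the ERBB family (Egfr, Erbb2 and Erbb3). They were chosen by gene symbol and by their place in the pathway, with earlier results of these data known. Of the 10 genes, 9 were measured among 22180 genes in all, by 10 probes that each carry a single symbol. Areg, which encodes amphiregulin, was not matched to a probe and was not analysed here.

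The ZAG skin came from NC/Nga females, from an inbred line that develops dermatitis readily, given ointment of the house dust mite Dermatophagoides farinae 2 times a week for 6 weeks and recombinant ZAG, also 2 times a week for 6 weeks. ZAG, or zinc-alpha-2-glycoprotein, is a lipid-mobilising protein found in secretions and plasma, and the design text gives its concentration as 1 µg/mL. The control skin came from mice of the same strain, sex and age with the same mite-induced dermatitis and no ZAG, so dermatitis is common to both groups, and the labels do not say what the controls received in place of ZAG. Mice entered at 6 weeks of age, and dorsal skin was taken at 13 weeks. The design text names 3 mice in each group, but each group has 1 array, and whether an array holds 1 mouse or a pool is not given. Values below therefore carry no replicate error, no test was made, and each difference is one between 2 arrays.

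EGFR ligands are made as membrane-anchored precursors and are released by metalloproteases of the ADAM family, of which ADAM17 is the main one for most of them. A bound ligand pairs EGFR with itself or with ERBB2 or ERBB3, and the pair signals through the RAS and MAP kinase cascade, phosphoinositide 3-kinase and STAT3. In epidermis EGFR is carried mainly by basal keratinocytes, which also make several of the ligands. Epgn, Ereg, Areg, Hbegf and Tgfa are known as ligand genes that keratinocytes induce on wounding, on inflammation or on EGFR signalling itself, and are called inducible ligands below. Epgn, Ereg, Areg and Btc lie beside each other on mouse chromosome 5.

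The probes read log2 intensities, so a difference of 1 is 2-fold, and ZAG minus control is given throughout. Over all probes Pearson's r between the arrays was 0.988, a description across probes that are not independent. The median difference of all genes was 0.01. As a scale for probe error, probes of one gene differed in their differences with an SD of 0.244 over 591 genes with several probes. A background gauge of 3.16 was taken from 1390 olfactory and vomeronasal receptor genes, which skin is not known to use widely, as the level that 95% of them do not exceed. Genes below that gauge on both arrays are given no fold. Probes differ in brightness for reasons other than transcript number, so levels are compared between arrays and not between genes. Keratinocyte markers were bright on both arrays, with Krt10 at 12.16 in ZAG skin and 12.15 in control skin and Krt14 at 10.62 in ZAG skin and 11.35 in control skin.

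Among the inducible ligands, the genes of epigen and HB-EGF were lower by more than 2-fold in ZAG skin, the gene of epiregulin was lower by less, and the gene of TGF-alpha was nearly level. The 3 receptor genes were each lower by 0.21 to 0.29, and lay within 0.0788 of each other. Of the 8 measured genes above the background gauge on an array, 7 had lower values in ZAG skin and 1, Btc, a higher one, and Egf was below the gauge on both arrays. Of the 7 that passed the filter on level (a mean level no lower than 3.87, the median over all genes), all 7 were lower, where 47.6% of the 11090 genes tested at that level were lower. At 2-fold, 2 of the 7 were lower and 0 were higher, where 1.15% of all genes tested were lower and 0.271% were higher. At 1.5-fold the same 2 members were lower, and none was higher, where 5.08% of all genes tested were lower and 2.48% were higher.

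**Figure D1:**
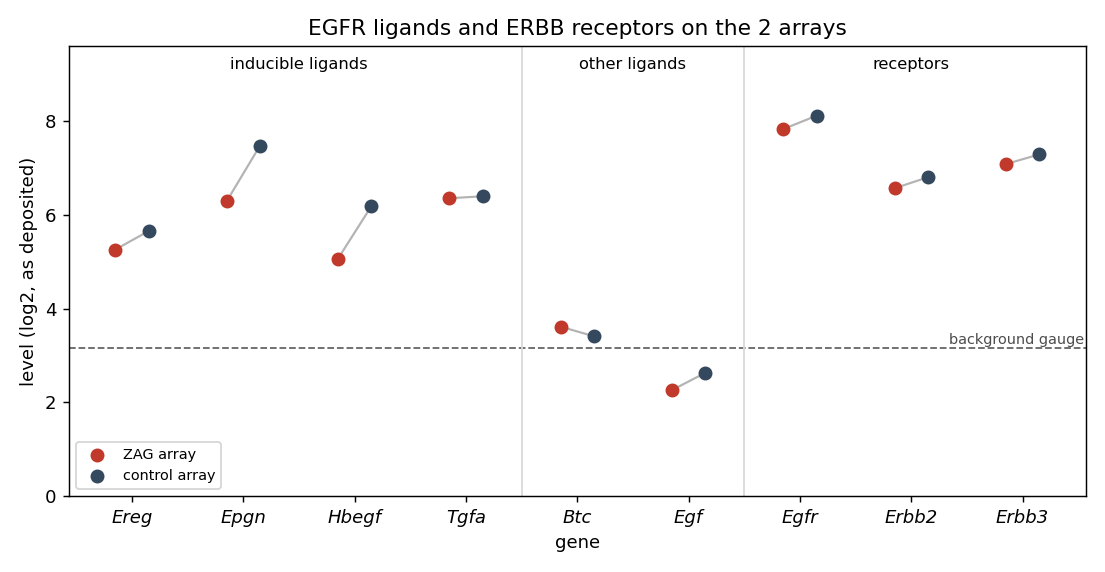
Level of each measured gene on the ZAG array (red, left) and the control array (dark, right), on the deposited log2 scale, with 1 array per group and no error bars. Epgn and Hbegf have the steepest lines, Btc is the gene with a higher point on the ZAG array, and both points of Egf lie below the dashed background gauge of 3.16.

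Epgn encodes epigen, a low-affinity ligand of EGFR made in epithelia. Its level was 6.29 in ZAG skin and 7.47 in control skin. That was a log2 difference of -1.19, or 2.28-fold lower. Of the 11090 genes at or above the median level, 78 had a lower difference, which is 0.703% of them. The 250 bases before the annotated starts of Epgn, Tgfa and Egfr are given from RefSeq, build GRCm38.p6. Epgn is a ligand gene past 2-fold, Tgfa a ligand gene with almost no difference and Egfr the receptor gene. They were picked with their differences known, and whether the letters bear on the differences was not tested. The windows are chr5:91027267-91027516, chr6:86194972-86195221 and chr11:16751953-16752202, all on the plus strand, read 5′ to 3′, with matches to the motifs named below in capitals.
Epgn: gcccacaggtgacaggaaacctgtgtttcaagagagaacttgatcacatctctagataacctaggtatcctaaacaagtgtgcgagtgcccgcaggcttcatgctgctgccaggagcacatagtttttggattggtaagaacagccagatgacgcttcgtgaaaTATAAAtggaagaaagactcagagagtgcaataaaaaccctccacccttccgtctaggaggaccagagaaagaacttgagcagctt
Tgfa: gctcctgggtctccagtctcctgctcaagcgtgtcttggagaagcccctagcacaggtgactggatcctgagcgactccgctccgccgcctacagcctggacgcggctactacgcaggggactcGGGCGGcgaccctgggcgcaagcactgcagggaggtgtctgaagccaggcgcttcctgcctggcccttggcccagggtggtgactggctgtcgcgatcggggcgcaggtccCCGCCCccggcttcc
Egfr: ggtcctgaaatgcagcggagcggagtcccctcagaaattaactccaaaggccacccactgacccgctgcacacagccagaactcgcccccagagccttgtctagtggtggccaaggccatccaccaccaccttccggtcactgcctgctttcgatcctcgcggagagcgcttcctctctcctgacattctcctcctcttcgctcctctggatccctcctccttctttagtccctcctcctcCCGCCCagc

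Each window was searched on both strands for AP-1 (TGANTCA), the cyclic AMP response element (TGACGTCA), the TATA box (TATAAA) and the GC box (GGGCGG), and no capitals in these windows belong to more than 1 motif. The Epgn window held TATAAA at bases -86 to -81 before the start, a motif found in 12.4% of 32841 such windows of all genes. It held none of the other motifs, and 46.8% of its bases were G or C, where the median of all windows was 52.4%. The Tgfa window held the GC box at -126 to -121 and, on the other strand, at -15 to -10, and was 69.2% G or C. The Egfr window held 1 GC box, on the other strand at -9 to -4, and was 60.8% G or C. The GC box was found in 32.8% of all windows. None of these 3 windows held the AP-1 letters, which 6.75% of all windows do. Among the other members searched, the Areg window (57.2% G or C) held the cyclic AMP response element, TATAAA and the GC box. The windows of Btc (59.6% G or C), Erbb2 (66%) and Egf held none of the motifs. These matches describe letters and are not evidence of binding, and a link between them and the differences was not tested. Hbegf, the other member past 2-fold, was not searched.

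Hbegf encodes heparin-binding EGF-like growth factor, which binds EGFR and ERBB4 and takes part in keratinocyte migration during wound closure. Its level was 5.06 in ZAG skin and 6.18 in control skin. The log2 difference was -1.12, or 2.17-fold lower, with 96 genes below it in the same ranking, 0.866% of them. The differences of Epgn and Hbegf were 0.07 apart, less than the probe SD of 0.244, so their order is not resolved.

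Ereg encodes epiregulin, a ligand of EGFR and ERBB4 made by activated keratinocytes and other cells. Its 2 probes gave different pictures of size but the same direction. The brighter probe read 6.56 in ZAG skin and 7.17 in control skin, a difference of -0.61. The dimmer probe read 3.96 in ZAG skin and 4.14 in control skin, a difference of -0.18. Their mean was 5.26 in ZAG skin and 5.65 in control skin, a difference of -0.40. The 2 probe differences were 0.43 apart, so a value for this gene depends on which probe is read. As an SD that is 0.30 for this gene, beside the probe SD of 0.244 over all genes with several probes that were used for it. The gap from Hbegf to the mean of Ereg was 0.72, which is 2.96 times the probe SD.

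Tgfa encodes TGF-alpha, an autocrine ligand of keratinocytes. It read 6.35 in ZAG skin and 6.40 in control skin. The difference of -0.04 was well inside the probe SD, and 42.3% of genes at this level had a lower one. The 4 measured inducible ligands thus ranged over 1.15 on the log2 scale, from Epgn to Tgfa, with a median of -0.76.

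The other ligand genes were dim. Btc encodes betacellulin, a ligand of EGFR and ERBB4. It read 3.62 in ZAG skin and 3.41 in control skin, both just above the background gauge, a difference of 0.21 that is smaller than the probe SD. That SD was taken from brighter genes, so it may not hold at the level of Btc. Egf, the gene of epidermal growth factor itself, read 2.26 in ZAG skin and 2.63 in control skin, both below the gauge. A second probe that carries the Egf symbol together with another, and was not used, read 2.49 in ZAG skin and 2.65 in control skin, also below it. No direction is given for Egf. Btc and Egf are the 2 measured members that did not pass the filter on level.

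Egfr encodes the receptor that all 7 ligands bind. It read 7.83 in ZAG skin and 8.11 in control skin, a difference of -0.29, or 1.22-fold lower, with 17.2% of genes at this level having a lower difference. Erbb2 encodes the partner receptor with no known ligand of its own. It read 6.57 in ZAG skin and 6.80 in control skin, a difference of -0.24. Erbb3 encodes a partner receptor with little kinase activity that binds neuregulins. It read 7.08 in ZAG skin and 7.29 in control skin, a difference of -0.21. The Egfr difference was 1.17 times the probe SD, and those of Erbb2 (0.964 times) and Erbb3 (0.846 times) were smaller than it.

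Set side by side, the 4 measured inducible ligands had a median difference of -0.76 and the 3 receptors one of -0.24, so the ligands were 0.52 lower relative to the receptors. The 2 sets overlap, because Tgfa (-0.04) lay above every receptor and Ereg (-0.40) was within 0.11 of Egfr. With Btc and Egf counted among the ligands the separation shrank to -0.15, and it was -0.88 without Ereg. Taken as gene means, Epgn and Hbegf were the 2 ligands lower than every receptor by more than the probe SD. Genes are not replicates, and the comparison describes these 2 arrays.

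**Figure D2:**
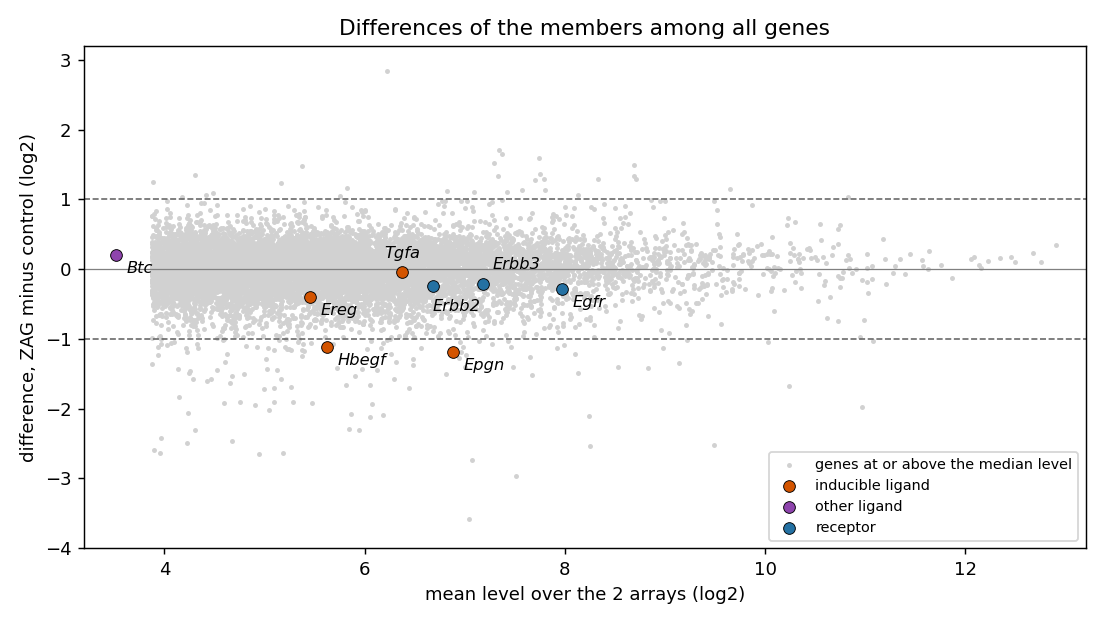
Difference, ZAG minus control (log2), against mean level over the 2 arrays (log2), for all 11090 genes at or above the median level (grey) and for the members above the background gauge on an array (coloured by role), with dashed lines at 2-fold. Epgn (-1.19) and Hbegf (-1.12) lie below the lower line, and the 3 receptors and Tgfa lie within the grey band.

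The remaining family receptor and its ligands, the neuregulins, did not share a direction. Erbb4 read 2.14 in ZAG skin and 1.92 in control skin and Nrg3 read 3.00 in ZAG skin and 2.98 in control skin, all below the gauge. Nrg1, a ligand of ERBB3 and ERBB4, read 4.37 in ZAG skin and 5.65 in control skin. Its difference of -1.28 was within 0.0953 of that of Epgn, less than the probe SD, so the order of these genes is not resolved. Nrg2 read 5.57 in ZAG skin and 5.24 in control skin, a difference of 0.33, and Nrg4 read 4.33 in ZAG skin and 4.14 in control skin, a difference of 0.20. Among the 3 of these 5 genes above the gauge, 1 was at least 2-fold lower, where 0.961% of all genes above the gauge on an array were (and 0.242% were at least 2-fold higher).

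Among the genes that release the ligands, 1 protease gene was more than 2-fold lower and the main sheddase gene was close to level. Of the 9 sheddase and iRhom genes measured, 8 were above the gauge, 7 of them lower and 1 higher, with a median over the 9 of -0.20. Of all genes above the gauge, 47.5% were lower at any size and 0.961% were at least 2-fold lower. Adam8, the gene of a protease of myeloid cells and activated tissue, was at 3.80 in ZAG skin and 5.25 in control skin, a difference of -1.45 and the one of the list past 2-fold. Adam9 had a difference of -0.53 and Adam12 one of -0.49, both proteases reported to shed HB-EGF. Adam17, which encodes the main sheddase of several of these ligands, was at 6.96 in ZAG skin and 6.73 in control skin, and its difference of 0.23 lay within the probe SD.

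The signalling genes just below the receptors were close to level. Of the 21 listed genes 16 were measured, all above the gauge, with a median of -0.11. Of the 16, 13 were lower and 3 higher, where 47.5% of all genes above the gauge were lower. At 2-fold 0 were called, where 0.961% of all genes above the gauge were lower and 0.242% were higher. At 1.5-fold 1 was lower and 0 were higher, where 4.4% of all genes above the gauge were lower and 2.3% were higher. This was Stat3, the gene of a transcription factor that cytokine receptors also use, at 7.68 in ZAG skin and 8.51 in control skin (-0.83). The adaptor gene Shc1 had a difference of -0.43 and the kinase gene Map2k2 one of -0.35. In the other direction were the kinase gene Braf (0.32), the phosphoinositide 3-kinase subunit gene Pik3r1 (0.11) and the kinase gene Src (0.02).

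The feedback and receptor-degradation genes, several of which are themselves switched on by EGFR signalling, had a median difference of -0.16 over 19 measured genes. Of these 14 were lower and 5 higher, where 47.5% of all genes above the gauge were lower. At 2-fold 0 were called, beside the 0.961% of all genes above the gauge that were lower and the 0.242% that were higher. At 1.5-fold 1 was lower, a share near the 4.4% of all genes above the gauge that were lower by that fold. The gene was Spry4, a Sprouty inhibitor of the RAS cascade, at 3.99 in ZAG skin and 4.68 in control skin (-0.70). The ubiquitin ligase genes Cblb (-0.47) and Cbl (-0.45), whose products send EGFR for breakdown, followed. Socs4 (0.41), which encodes a suppressor that binds EGFR, Dusp5 (0.23), a phosphatase gene of the MAP kinase pathway, and Rnf41 (0.12), the gene of a ligase for ERBB3, were the highest.

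Genes that EGFR signalling is known to induce were lower as a list. The list was drawn up with earlier results of these data known, so its counts describe it and do not test it. All 13 measured of 15 had lower values in ZAG skin, where 47.5% of all genes above the gauge were lower at any size. The median difference of the list was -0.62. Of the 13, 5 passed 2-fold and 7 passed 1.5-fold, beside the 0.961% and 4.4% of all genes above the gauge that were lower by those folds. Krt6b, a keratin gene of wounded epidermis, read 9.99 in ZAG skin and 11.96 in control skin, a difference of -1.97. Plaur, the gene of the urokinase receptor, read 3.80 in ZAG skin and 5.70 in control skin, a difference of -1.90. Krt16, the partner keratin gene of Krt6, read 9.40 in ZAG skin and 11.07 in control skin, a difference of -1.67. The remaining genes past 2-fold were the immediate early gene Fos (-1.51) and Krt6a (-1.03). At the other end Phlda1 (-0.08), Krt17 (-0.08) and the cyclin gene Ccnd1 (-0.13) differed by less than the probe SD. Many of these genes also answer to cytokines, wounding and tissue handling, and such inputs cannot be told apart here.

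Markers of other cell types differed beside these values. Counts at 2-fold stand beside the 0.961% of all genes above the gauge that were lower and the 0.242% that were higher. For counts at any size, 47.5% of all genes above the gauge were lower, and 7360 of the 14055 were higher. All 6 neutrophil markers were at least 2-fold lower, and their mean log2 level was 5.42 in ZAG skin and 7.06 in control skin. Of the 6 macrophage markers 5 were lower and 1 was past 2-fold, with means of 5.94 in ZAG skin and 6.73 in control skin. All 6 mast cell markers were lower and 1, Hdc, was past 2-fold, with means of 5.96 in ZAG skin and 6.92 in control skin. The neutrophil marker Clec4e and the mast cell marker Hdc were below the gauge in ZAG skin only, and none of these 18 markers was below it in control skin. All 6 hair follicle markers and all 5 skeletal muscle markers were higher in ZAG skin, the first with means of 10.51 in ZAG skin and 9.97 in control skin and the second with means of 8.12 in ZAG skin and 7.31 in control skin. Of the muscle markers 2 were at least 2-fold higher, Myh4 (1.59) and Pvalb (1.12). Keratinocyte markers had a median difference of -0.16 over 5 measured genes, with Krt14 at -0.73 and Krt10 at 0.01. The median was -0.41 for 6 fibroblast markers, -0.37 for 5 endothelial markers, 0.42 for 5 adipocyte markers and -0.10 for 5 B and T cell markers. Of the B and T cell markers, Cd79a and Ms4a1 were below the gauge on both arrays. Cd4 was at least 2-fold lower (-1.06), Cd3g was higher (0.72) and Cd3e was nearly level (-0.10). In whole skin, fewer cells of a type and less RNA per cell cannot be told apart, and the part that cell makeup plays in the values of Epgn, Hbegf and Egfr was not tested.

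**Figure D3:**
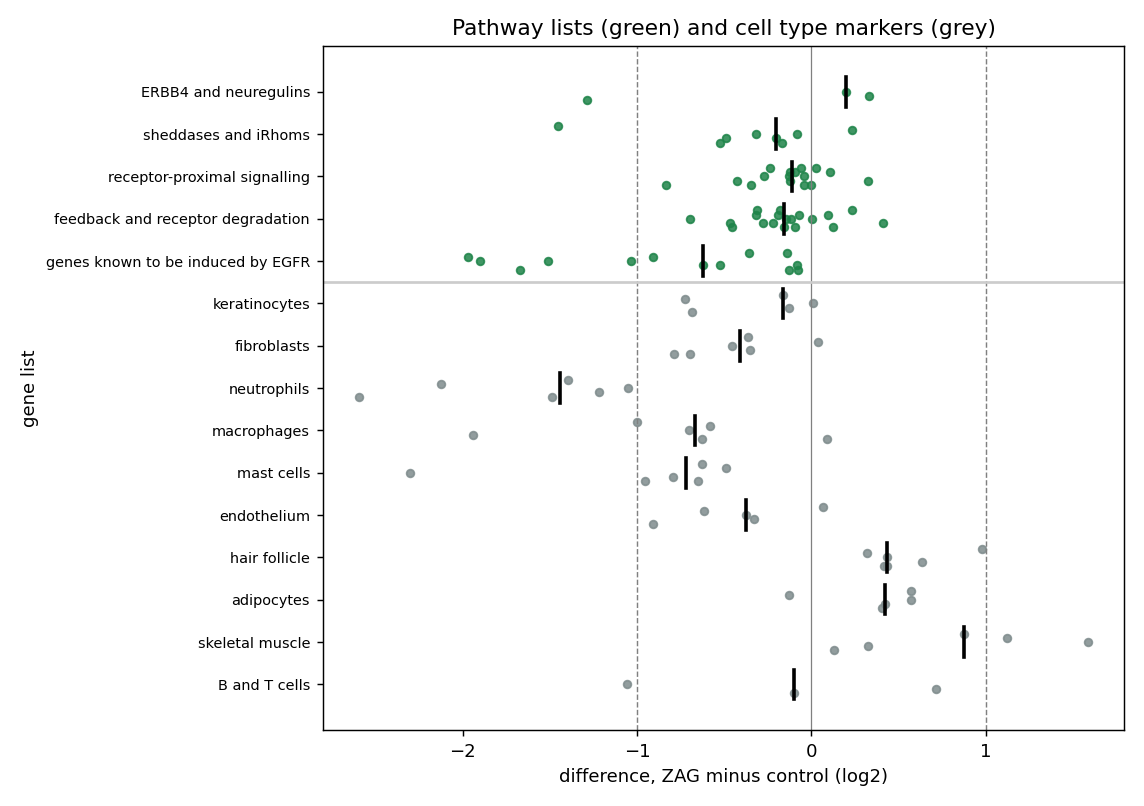
Difference, ZAG minus control (log2), of each gene above the background gauge on an array, by list, with pathway lists in green, cell type markers in grey, black bars at the median of all measured genes of a list and dashed lines at 2-fold. The medians of neutrophil markers (-1.44), mast cell markers (-0.72), macrophage markers (-0.66) and genes known to be induced by EGFR signalling (-0.62) lie left of 0, and those of hair follicle (0.43), adipocyte (0.42) and skeletal muscle markers (0.88) lie right of it.

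The measured genes of the chromosome 5 cluster did not differ by a like amount. In the order of the chromosome, Epgn (-1.19) came first, followed by Ereg (-0.40), Areg, which was not measured, and Btc (0.21, smaller than the probe SD). Mthfd2l, a folate enzyme gene, precedes Epgn and read 5.67 in ZAG skin and 5.49 in control skin. Its difference of 0.19 was also smaller than the probe SD. Before it lie CXC chemokine genes, of which Cxcl2 read 3.63 in ZAG skin and 4.83 in control skin (-1.19), Cxcl1 read 4.03 in ZAG skin and 4.73 in control skin (-0.70), and Cxcl5 read 3.62 in ZAG skin and 5.23 in control skin (-1.60). Their products attract neutrophils. Pf4, the platelet factor gene among them, was nearly level (-0.13). Ppbp, another platelet chemokine gene, read 3.06 in ZAG skin, below the gauge, and 3.38 in control skin. Cxcl3, Cxcl15 and, on the far side of Btc, Odaph were below the gauge on both arrays. After Btc, Parm1 had a difference of -0.56 and Rchy1 one of 0.40. Parm1 and Rchy1, which stand next to each other, thus differed in opposite directions by more than the probe SD. The directions of Mthfd2l and Btc are not resolved. The stretch, 8 protein-coding genes before Epgn and 3 after Btc, was set by position.

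**Figure D4:**
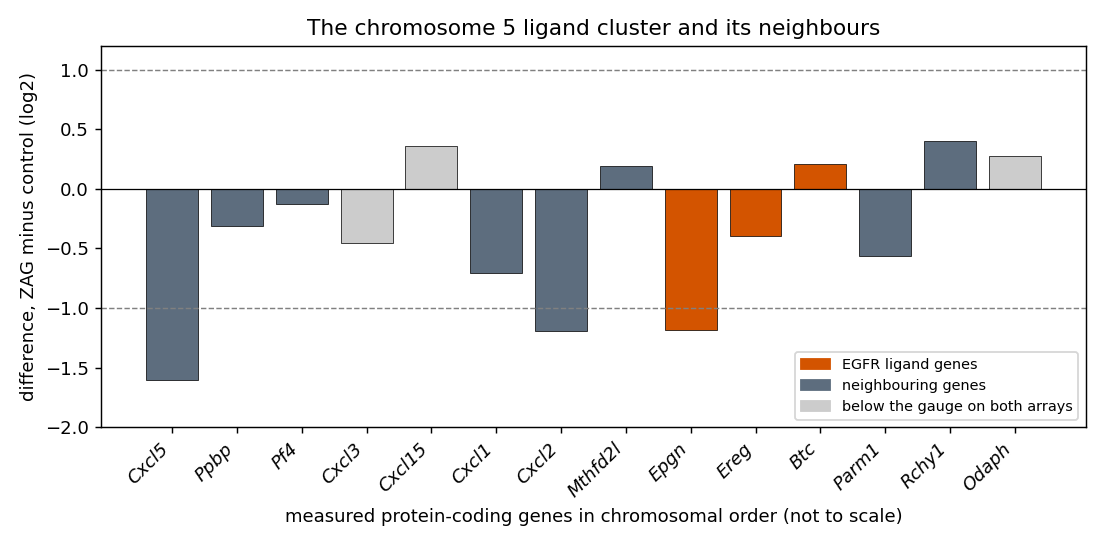
Difference, ZAG minus control (log2), of the measured protein-coding genes from 8 before Epgn to 3 after Btc, in chromosomal order and not to scale, with ligand genes in orange, neighbours in dark grey, genes below the background gauge on both arrays in light grey and dashed lines at 2-fold. Epgn, Cxcl2 and Cxcl5 pass the lower line, and Mthfd2l and Btc point the other way, each by less than the probe SD.

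The genes whose pair of values came nearest to those of a member were found by Euclidean distance over the 2 arrays among 19288 genes. With 2 points per gene this likeness is weak and describes level and difference only. Nearest to Epgn were Ace (distance 0.102), Il4ra (0.118) and Lyve1 (0.144). Nearest to Hbegf were Fetub (0.0399), Ccl7 (0.0496) and Cthrc1 (0.0948). Nearest to Egfr were Larp4b (0.00929), Ppl (0.0175) and Dag1 (0.0414).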

How the data were processed

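Dorsal skin RNA was measured on Affymetrix arrays, prepared with a column kit and biotin-labelled as sense cDNA, per the labels' protocols. The deposited table holds log2 values for 33793 probes in 2 columns, 1 per group. The log2 scale was inferred from the numbers, which run from 0.866 to 13.19. The labels do not name the background correction, summarisation or normalization. The column medians were 3.36 (ZAG) and 3.33 (control). Depth does not apply to arrays, and their number limits the precision.

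Of the probes, 23521 carried 1 gene symbol in the platform annotation and were averaged per gene. Gene identifiers of the 9 measured members matched RefSeq's gene table (GRCm38.p6), and promoter windows of 7 of the 10 members were searched. The search of members left out chromosome 18, where Hbegf lies, so Hbegf was not searched. The build of the array annotation is not given, so gene coordinates are not printed and the table was used for gene order. A value under the background gauge was set to it before a fold was counted. Members, gene lists and the rule for named genes were chosen with earlier results of these data known. The rule took the members, ERBB4 and the neuregulins, up to 3 genes each way per pathway list and the 3 nearest genes of Epgn, Hbegf and Egfr. Fos, Krt6a, Phlda1, Krt17, Ccnd1 and the single cell type markers were named after their values were seen, and the genes beside the chromosome 5 cluster, added outside the rule, were taken by position. The counting code was checked on shuffled differences of these data with known shifts added, which checks the code and not the results. Alternatives were 3 rescalings, the brightest probe, other thresholds, filters and list memberships. Scripts ran in Python 3.11.15 with pandas 2.3.3 and numpy 2.4.6, loess came from statsmodels 0.14.6, and plots were drawn with matplotlib 3.10.9.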

Additional observations from a re-analysis of the deposited data

How the results depend on the processing

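Of 69 values recomputed under alternatives, 66 moved by less than the probe SD of 0.244 or kept their count. No difference or median changed sign, and counts have none. Some of the 69 could not move. The brightest probe can change only Ereg among the members, because the others have 1 probe each. Median centring shifts all differences alike, and every inducible ligand and receptor measured is above the gauge. Median centring, quantile normalization and loess left Epgn between -1.22 and -1.18, Hbegf between -1.15 and -1.10, Egfr between -0.34 and -0.30 and Tgfa between -0.07 and -0.03. Epgn and Hbegf were also the 2 members past the threshold at 1.5-fold, without the floor and without the filter on level. Both already passed 2-fold, the gauge and the filter, so these settings could add members but could not remove Epgn or Hbegf. No other member was added. Ereg was -0.61 with its brightest probe. The separation of ligands from receptors depends on which ligands are counted, by construction. It was -0.15 over all 7 ligands with Btc and Egf, of which 6 were measured. In an alternative chosen after seeing the data, leaving out Ereg, whose 2 probes gave different sizes, it was -0.88. The median of the inducible ligands was then -1.12. No paired analysis was possible because each group has 1 array. For the same reason no array could be left out.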
